A study of Mus musculus with 3 samples.

Results

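The signalling lymphocyte activation molecule (SLAM) family was described here at the level of chromatin in natural killer cells (NKC) by 8 genes, the receptors Cd244, Cd48, Slamf7, Ly9, Slamf1, Cd84 and Slamf6 and the adaptor Sh2d1b1. They were found by symbol among 22350 protein-coding genes of the mm9 mouse annotation, and each was taken as the gene body with 20 kb on either side, called its window. The windows held 16 of the 15524 Runx3-bound regions (peaks) and 36 of the 49902 H3K4me1-marked regions of the series. The series has 3 samples, 1 for each of 3 precipitations of chromatin from resting splenic NKC of wild-type ICR mice, an outbred strain, whose age is not given in the labels. The first precipitation used a polyclonal antibody to the transcription factor Runx3 made in the laboratory. The second used a monoclonal antibody to H3K4me1, the monomethylated form of lysine 4 on histone H3. The last, with rabbit non-immune serum (NIS), was the control against which the authors called regions. Cells were enriched by negative selection and then sorted, on NKp46 according to the labels and on DX5 according to the study's methods. The region lists carry positions only, so the number of reads behind a region is unknown, no region can be called stronger than another, and with 1 list per antibody there is no spread between replicates and no test.

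SLAM receptors are surface proteins of blood cells that mostly bind a copy of themselves on a neighbouring cell, whereas 2B4, the product of Cd244, binds CD48. Apart from the lipid-anchored CD48, they have cytoplasmic tails that recruit small adaptors with a single SH2 domain. These adaptors are SAP (encoded by Sh2d1a) and the EAT-2 proteins (Sh2d1b1 and, in the mouse, Sh2d1b2). They couple such receptors to kinases and phospholipase C and so to killing and cytokine release by NKC. Runx3 belongs to the RUNX transcription factors, which bind a short shared DNA consensus, and H3K4me1 is a histone mark of enhancers and of the flanks of active promoters.

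The bases under the peaks are shown first, since positions alone do not show them. The following 160 bp stretches were read from mm9 (the C57BL/6J reference, not the ICR genome), 5′ to 3′ on the strand of the gene, and each is the stretch of its peak outside annotated untranslated exons that holds the most RUNX matches. Capitals mark matches to the RUNX consensus, searched as TGTGGT or TGTGGC and, with a CpG, as TGCGGT or TGCGGC, on both strands. A match on the other strand begins with ACC or GCC in the printed letters. They were chosen to show 1 peak for each bound receptor gene, and a second one at Slamf7.
Cd244 intron 1, chr1:173491388-173491547, plus strand: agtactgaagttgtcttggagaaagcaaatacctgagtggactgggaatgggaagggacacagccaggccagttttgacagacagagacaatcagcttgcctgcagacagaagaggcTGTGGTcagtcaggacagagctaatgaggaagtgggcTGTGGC
Ly9 up to the base before its start, chr1:173537542-173537701, minus strand: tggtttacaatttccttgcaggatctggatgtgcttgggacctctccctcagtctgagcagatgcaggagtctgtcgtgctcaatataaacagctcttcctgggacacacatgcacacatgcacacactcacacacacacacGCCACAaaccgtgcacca
Slamf7 intron 1, chr1:173573882-173574041, minus strand: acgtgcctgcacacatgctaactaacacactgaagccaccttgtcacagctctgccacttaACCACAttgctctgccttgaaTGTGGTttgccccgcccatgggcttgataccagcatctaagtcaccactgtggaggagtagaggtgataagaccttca
Past the 3′ end of Slamf7, chr1:173559742-173559901, minus strand: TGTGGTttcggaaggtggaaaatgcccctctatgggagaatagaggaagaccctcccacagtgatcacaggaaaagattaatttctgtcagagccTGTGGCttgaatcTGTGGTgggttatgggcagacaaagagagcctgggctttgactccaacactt
Cd48 just before its start, chr1:173611933-173612092, plus strand: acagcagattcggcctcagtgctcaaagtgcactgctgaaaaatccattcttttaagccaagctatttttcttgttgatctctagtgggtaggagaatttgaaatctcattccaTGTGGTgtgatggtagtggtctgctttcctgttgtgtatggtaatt
Cd84 intron 2, chr1:173775640-173775799, plus strand: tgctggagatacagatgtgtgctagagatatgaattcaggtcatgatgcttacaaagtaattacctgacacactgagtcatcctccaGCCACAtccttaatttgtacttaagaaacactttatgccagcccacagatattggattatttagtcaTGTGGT
Slamf6 intron 1, chr1:173851427-173851586, plus strand: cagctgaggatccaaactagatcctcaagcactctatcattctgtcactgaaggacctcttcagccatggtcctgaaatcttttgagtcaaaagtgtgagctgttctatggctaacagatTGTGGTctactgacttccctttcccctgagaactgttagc
Slamf1 had no peak in its window, and the 160 bp before its start, which hold 0 RUNX matches, are given for comparison.
Slamf1 before its start, chr1:173697098-173697257, plus strand: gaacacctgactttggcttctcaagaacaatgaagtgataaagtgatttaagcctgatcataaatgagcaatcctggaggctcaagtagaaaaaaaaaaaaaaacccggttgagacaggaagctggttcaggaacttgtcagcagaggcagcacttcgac

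A Runx3 peak lay in the windows of 7 of the 8 genes, Slamf1 being without one, where 51.0% of all protein-coding genes had a peak in a window of the same flank. An H3K4me1 region lay in 8 of 8 windows, against 74.0% of all genes. The median window of the 8 held 2 peaks (range 0 to 5) and 5 H3K4me1 regions (range 2 to 10), where the median over all genes was 1 peak and 3 regions. The windows of the 8 were somewhat longer than most, with a median of 64688 bp against 55427 bp, so the counts were also taken per length. Per 100 kb of window the median of the 8 was 3.09 peaks, against 0.459 over all genes (interquartile range 0 to 2.35). H3K4me1 covered a median of 31.9% of a window (range 11.0 to 63.9%), against 7.38% over all genes (interquartile range 0 to 17.3%). The 7 receptor genes are neighbours on chromosome 1 and some share regions, with 2 of the 16 peaks lying in more than 1 window, so the 8 genes are not 8 independent observations. The genes were also taken up with earlier results of these data known, so these counts are a description of the family and no evidence that it stands apart.

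**Figure D1:**
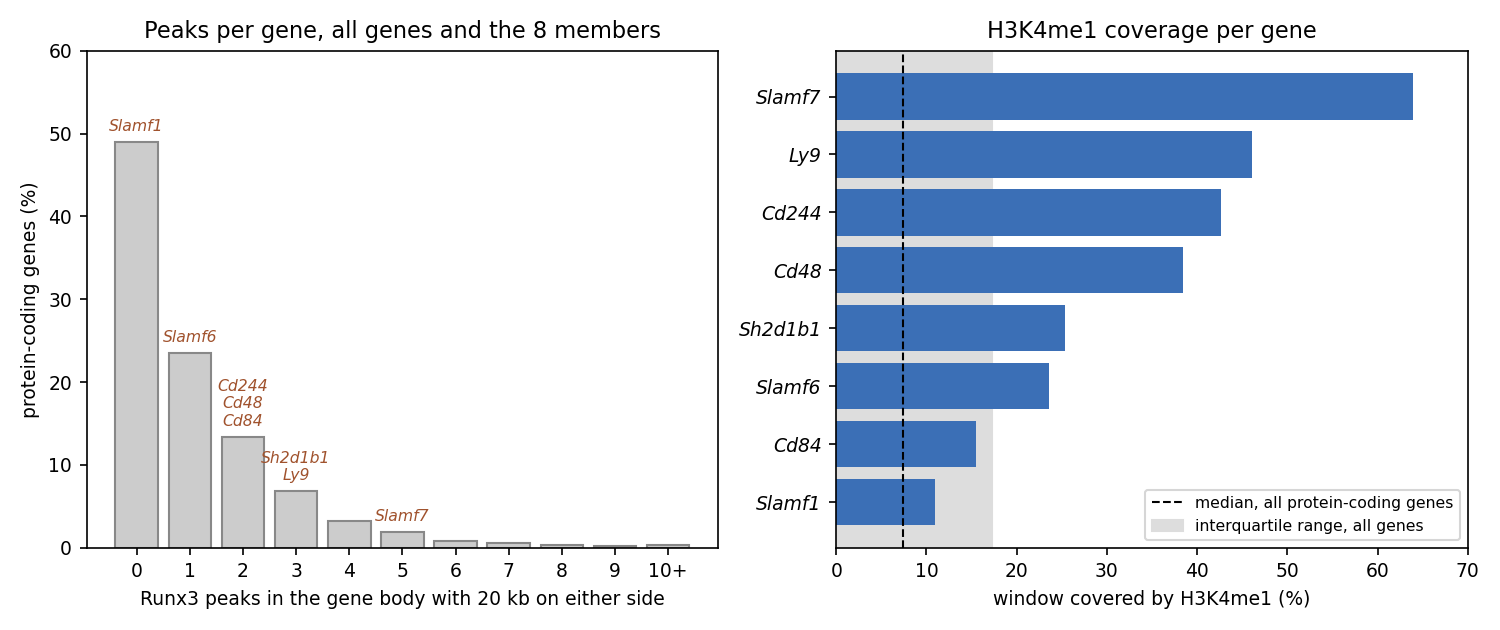
Left, the share of all 22350 protein-coding genes (%) by the number of Runx3 peaks in the gene body with 20 kb on either side, with the 8 SLAM family genes named above the bar they belong to. Right, the percentage of each gene's window covered by H3K4me1, with the median (7.38%, dashed line) and interquartile range (grey) over all genes, above which 6 of the 8 genes lie.

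In the receptor cluster on chromosome 1 the Runx3 peaks gathered at the end with Cd244, Ly9, Slamf7 and the start of Cd48. From the first base of Cd244 to the last base of Slamf6, with 20 kb on either side, the cluster spanned chr1:173469324-173899083 (430 kb) and held 13 peaks and 31 H3K4me1 regions. This came to 3.02 peaks per 100 kb (exact Poisson interval 1.61 to 5.17, counting error only), against 0.518 on chromosome 1 as a whole and 0.588 over the 20 chromosomes. H3K4me1 covered 31.2% of the cluster, against 4.40% of chromosome 1. Among 6128 consecutive segments of 429760 bp over the genome the median segment held 1 peak and had 1.62% of its bases under H3K4me1. As many peaks as in the cluster were found in 3.49% of the segments, and as much H3K4me1 in 0.800%. Set beside the other NK receptor complexes, the Klrb1 and Clec2 genes on chromosome 6 had 5.99 peaks per 100 kb (4.22 to 8.26) and 31.6% under H3K4me1, and the Ly49 genes 2.69 (1.54 to 4.36) and 23.5%. The SLAM cluster thus had fewer peaks per length than the Klrb1 and Clec2 genes at a near equal H3K4me1 share, though the intervals of the peak densities overlap.

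When the cluster was divided 1 kb past the start of Cd48, a point chosen after the positions were seen, the 144 kb with Cd244, Ly9, Slamf7 and the Cd48 promoter held 10 peaks (6.95 per 100 kb) and were covered by H3K4me1 to 55.9%. The remaining 286 kb, with the Cd48 body, Slamf1, Cd84 and Slamf6, held 3 peaks (1.05 per 100 kb) and were covered to 18.7%. The longest run without a peak, 158 kb from the Cd48 start to just past the first start of Cd84 (chr1:173612313-173770410), took in all of Slamf1. A further run of 75.0 kb lay within Cd84 and on to Slamf6, and 1 of 41.3 kb from Cd244 intron 1 to Ly9. H3K4me1 had its own longest gap elsewhere, 66.6 kb from Cd84 to just past the Slamf6 start (chr1:173781237-173847879). Gm10521, the only other protein-coding gene annotated in the cluster (chr1:173825795-173828368), lies in both gaps and so had neither a peak nor an H3K4me1 region in its body.

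**Figure D2:**
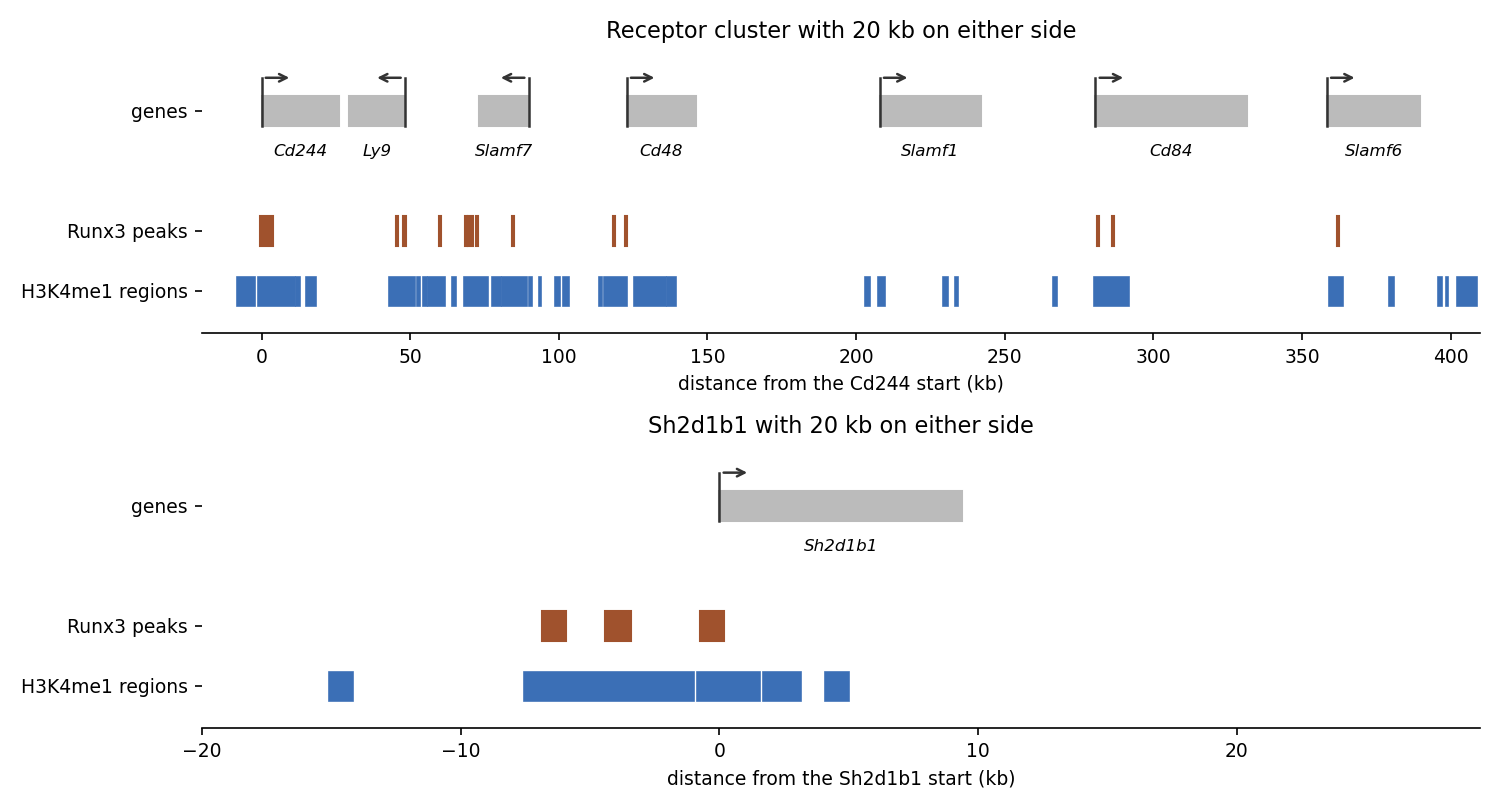
Positions along chromosome 1 in kb from the start of Cd244 (top) and of Sh2d1b1 (bottom), with gene bodies in grey, arrows in the direction of transcription, Runx3 peaks in brown and H3K4me1 regions in blue, to scale. The peaks gather at the Cd244, Ly9, Slamf7 and Cd48 end, and none lies in the 158 kb that hold Slamf1.

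Cd244 (ENSMUSG00000004709.8, chr1:173489324-173515449, plus strand) encodes 2B4, a receptor of NKC whose signal depends on the adaptors at hand. Its start lay in the widest peak of the family, chr1:173488747-173493239. At 4493 bp this peak ranked 4 by width among all 15524, where the second widest at the family was 1467 bp and the median of the 16 was 780 bp (all peaks, 825 bp). It ran from before the start into intron 1, with 3723 bp in introns, 61 bp in coding exons and 132 bp in untranslated exons, so that its midpoint lay 1.54 kb past the nearest start. It held 9 RUNX matches, 3 ETS matches and 3 AP-1 matches, but 0 RUNX matches in its central 200 bp. ETS factors were searched as AGGAAGT and CGGAAGT and AP-1 as TGACTCA and TGAGTCA, on both strands. The stretch printed for Cd244 holds 2 of the RUNX matches with an ETS match next to the second one. Around this peak was the widest H3K4me1 region of the family, chr1:173487635-173500502 (12868 bp, a width reached by 1.10% of all H3K4me1 regions), and 63.4% of the Cd244 body was marked. Copy number at Cd244 in the ICR genome may differ from that in mm9, and whether it bears on these widths was not tested. The other peak counted for Cd244 lies in Ly9, past its 3′ end.

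Cd48 (ENSMUSG00000015355.7, chr1:173612140-173635389, plus strand) encodes the lipid-anchored ligand of 2B4 and is expressed by most blood cells. A peak of 601 bp, chr1:173611712-173612312, covered its start, with the midpoint 128 bp upstream. Of the 16 peaks it was the only one not wholly within H3K4me1. The mark, in a region of 7971 bp that also held a peak 4.14 kb upstream of the start, ended inside it and covered 78.7% of its bases. Downstream, 11098 bp of the Cd48 body formed a single H3K4me1 region (chr1:173614214-173625311) that held 0 peaks, the widest of the family's regions without one. The promoter stretch printed above has a single RUNX match.

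Slamf7 (ENSMUSG00000038179.7, chr1:173562534-173579149, minus strand) encodes CRACC, an activating receptor of NKC that signals through EAT-2. It had the most peaks of the 8, with 5 in its window, a number reached by 4.08% of all genes. At 8.83 peaks per 100 kb it had a density reached by 2.26% of all genes. It also had the highest H3K4me1 share, 63.9% of the window and 91.0% of the body, and 0.510% of all genes had as high a share of the window. Yet no peak lay at its start. The nearest was 5.18 kb downstream in intron 1 (chr1:173573572-173574350, 779 bp), with 3 RUNX matches, of which 2 were in the central 200 bp, on opposite strands, as printed. The start itself was in an H3K4me1 region, and its 300 bp promoter, from 250 bp before to 50 bp after the start, had 0 RUNX matches and 1 AP-1 match. The other side of Slamf7 held more. Just past its 3′ end, 3 peaks, chr1:173557713-173558338, chr1:173558900-173560366 and chr1:173561346-173561980, lay in a single H3K4me1 region of 8160 bp that reached into the gene, the only region of the family with 3 peaks. The middle one, 1467 bp wide, had 6 RUNX matches, 3 of which stand in the printed stretch. Of these 3 peaks, the first was nearest to the start of Ly9, 20.5 kb upstream of it. The others were nearest to a start of Slamf7, 19.5 and 17.5 kb downstream of it. Positions alone do not tie any of them to either gene.

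Ly9 (ENSMUSG00000004707.8, chr1:173518755-173537541, minus strand) encodes CD229, a receptor that binds itself and is known best from T and B cells. It had 3 peaks and 9 H3K4me1 regions, covering 46.1% of its window. The peak at its start (chr1:173536912-173537957, 1046 bp), centred 26 bp from an annotated start, held 5 RUNX matches, of which 1 was in the central 200 bp, and 1 ETS match within 20 bp of a RUNX match. A peak in intron 2 (chr1:173534563-173535244, 682 bp) with 3 RUNX matches lay in the same H3K4me1 region of 9003 bp. The narrowest of the 16 (chr1:173549096-173549663, 568 bp) lay between Ly9 and Slamf7, 11.8 kb upstream of Ly9, with 1 RUNX match.

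Slamf1 (ENSMUSG00000015316.9, chr1:173697258-173731315, plus strand) encodes CD150, a receptor best known from T cells, macrophages and blood stem cells. It was the gene without a Runx3 peak, the nearest lying 73.5 kb from any of its starts. It was not without H3K4me1, which lay over its start (chr1:173696299-173699020, 2722 bp) and in 4 regions in all. These covered 11.0% of the window, the lowest share of the family, a share that 39.2% of all genes reached. Its 300 bp promoter had 0 matches to RUNX, ETS and AP-1.

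Cd84 (ENSMUSG00000038147.7, chr1:173769828-173820849, plus strand) encodes a receptor that binds itself on many blood cells. Both of its peaks lay near its 5′ end in 1 H3K4me1 region of 12317 bp (chr1:173768920-173781236), the second widest of the family. The first (chr1:173770411-173771106, 696 bp) did not cover the first start, but was centred 6 bp from another annotated start, in exon 2. The second (chr1:173775297-173776134, 838 bp) was in intron 2, 4.95 kb from a start. Each had 2 RUNX matches, all of them in the central 200 bp. The rest of this gene, the longest of the 8, was bare, so that 22.4% of its body was marked.

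Slamf6 (ENSMUSG00000015314.4, chr1:173847646-173879083, plus strand) encodes Ly108, the mouse counterpart of human NTB-A, an activating receptor of NKC. It had 1 peak (chr1:173851116-173851896, 781 bp), in intron 1, 3.67 kb downstream of a start, with 2 RUNX matches. The peak lay in an H3K4me1 region of 5203 bp that began 234 bp past the first start of Slamf6. Slamf6 was thus the only gene of the 8 whose first start was not marked, and 7 of 8 were, where 34.5% of all protein-coding genes had a marked first start.

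**Figure D3:**
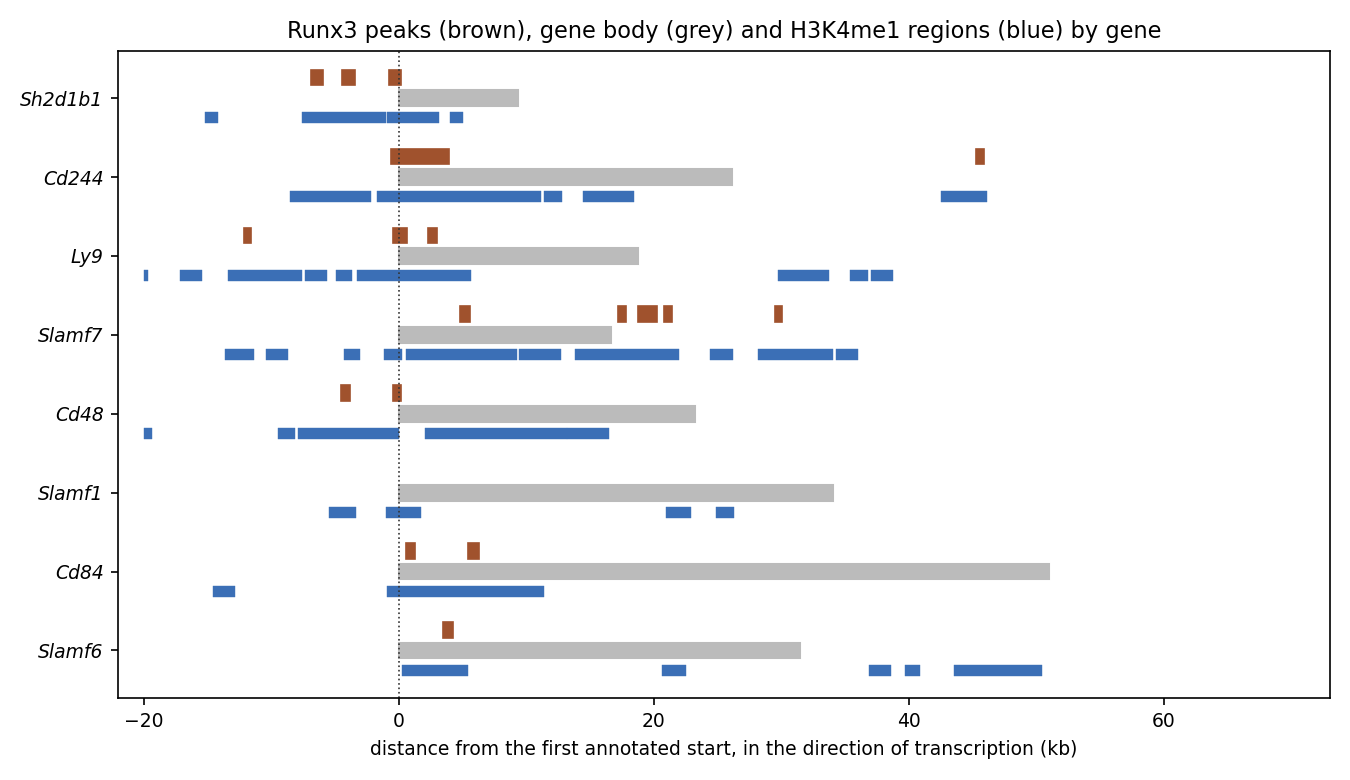
Each row shows a SLAM family gene aligned at its first annotated start (dotted line at 0) in the direction of transcription, in kb, with the gene body in grey, Runx3 peaks in brown above it and H3K4me1 regions in blue under it, within the window. Peaks lie over the start line for Sh2d1b1, Cd244, Ly9 and Cd48, inside the first introns for Slamf7 and Slamf6 and just past the start for Cd84, and nowhere for Slamf1.

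Sh2d1b1 (ENSMUSG00000026673.2, chr1:172207507-172216900, plus strand) encodes the adaptor EAT-2 and lies on the same chromosome, apart from the receptor cluster. It had 3 peaks, all on the upstream side, 6.39 kb (chr1:172200659-172201575), 3.92 kb (chr1:172203097-172204085) and 286 bp (chr1:172206772-172207671) before its start. They were 917, 989 and 900 bp wide. H3K4me1 ran along all 3 in a pair of adjoining regions and covered 25.4% of the window and 43.0% of the body. The middle peak held 4 RUNX matches and an ETS match within 20 bp of one of them.

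The peak at the Sh2d1b1 start was the only one of the 16 with a second copy in mm9 at 90% identity or more over 50% of its length or more. The copy lies at chr1:172162318-172163159, over the start of the neighbouring Sh2d1b2, which encodes the second EAT-2 protein of the mouse, and matched 92.1% of the peak at 90.7% identity. The copy had 0 Runx3 peaks, the nearest lying 2076 bp away within Sh2d1b2, although H3K4me1 covered all of it. Both RUNX matches of the peak stood at the same places in the copy, whereas 1 of its 2 AP-1 matches did not. The matching stretches are shown with RUNX matches in capitals, and 145 of 160 aligned bases are the same.
Sh2d1b1 with a peak, chr1:172207142-172207301, plus strand: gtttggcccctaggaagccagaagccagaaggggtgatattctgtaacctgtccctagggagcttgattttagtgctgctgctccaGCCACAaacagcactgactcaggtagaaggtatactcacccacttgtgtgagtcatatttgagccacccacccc
Sh2d1b2 without a peak, chr1:172162616-172162793, plus strand: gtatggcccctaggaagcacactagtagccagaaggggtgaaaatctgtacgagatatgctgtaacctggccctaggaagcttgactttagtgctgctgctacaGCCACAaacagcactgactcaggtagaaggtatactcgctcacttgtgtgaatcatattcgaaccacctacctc
The authors kept only reads that aligned to a single place. Of the 40 bp words in the aligned part of the peak, 234 of 790 (29.6%) also stand unchanged in the copy, so that a read of such a word would fit both places. What this did to the calls was not tested.

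At starts, a peak midpoint lay under 1 kb from an annotated start in 4 of the 8 genes, Sh2d1b1, Ly9, Cd48 and Cd84, against 27.2% of all protein-coding genes. Counting a start inside a peak instead adds Cd244 and makes it 5, and the share of all genes by that rule was not counted. Of the 16 peaks, 4 were under 1 kb from a start of these genes, 6 at 1 to 5 kb and 6 further out, with a median distance of 4029 bp, and 7 had the midpoint inside the body of one of the genes. All 16 shared bases with H3K4me1 (100%, exact 95% binomial interval 79.4 to 100%), near the 95.7% of all Runx3 peaks. All 16 midpoints lay in the mark too, where 83.6% of all midpoints did. Conversely, 10 of the 36 H3K4me1 regions held a peak (27.8%, against 28.6% of all regions). Those 10 were wide, with a median of 8065.5 bp (range 2448 to 12868 bp), against 1770.5 bp (960 to 11098 bp) for the 26 without. Over all H3K4me1 regions the medians were 2646.5 bp with and 1614 bp without a peak, and a wide region has more room for a peak.

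Every peak of the family held a RUNX match (16 of 16, 79.4 to 100%), which 93.3% of all Runx3 peaks did. In the central 200 bp it was 12 of 16 (75.0%, 47.6 to 92.7%), against 69.1%. Neither share stands clear of the background. The 48 matches were of 2 spellings, 35 TGTGGT and 13 TGTGGC. The forms with a CpG, TGCGGT and TGCGGC, were each in 0 of 16 peaks, for which the exact upper limit is 20.6%, whereas 24.7% and 26.1% of all peaks held them. TGTGGT was in 16 of 16, against 65.5% of all peaks. The authors found the CpG forms more often at promoters and the other forms more often at enhancers. The peaks compared here were not matched for distance to a start. ETS matches were in 6 of 16 (37.5%, 15.2 to 64.6%), against 41.8%. AP-1 matches were in 6 of 16 (37.5%), with an interval of 15.2 to 64.6% that reaches under the 16.5% of all peaks. In the central 200 bp, AP-1 was in 5 of 16 (31.2%, 11.0 to 58.7%), against 5.50%. RUNX and ETS matches within 20 bp of each other were in 3 of 16 (18.8%, 4.05 to 45.6%), those of Cd244, the Ly9 start and the middle Sh2d1b1 peak, against 7.01% of all peaks. In the 300 bp promoters of the 8 genes, RUNX matches were in 6 (45.3% of all promoters of this length), ETS matches in 2, those of Ly9 and Cd48 (16.1%), and AP-1 matches in 4, those of Sh2d1b1, Cd244, Slamf7 and Cd84 (4.42%). The intervals cover counting error alone, and neighbouring peaks are not independent. A match is a run of letters and was not shown to be bound.

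**Figure D4:**
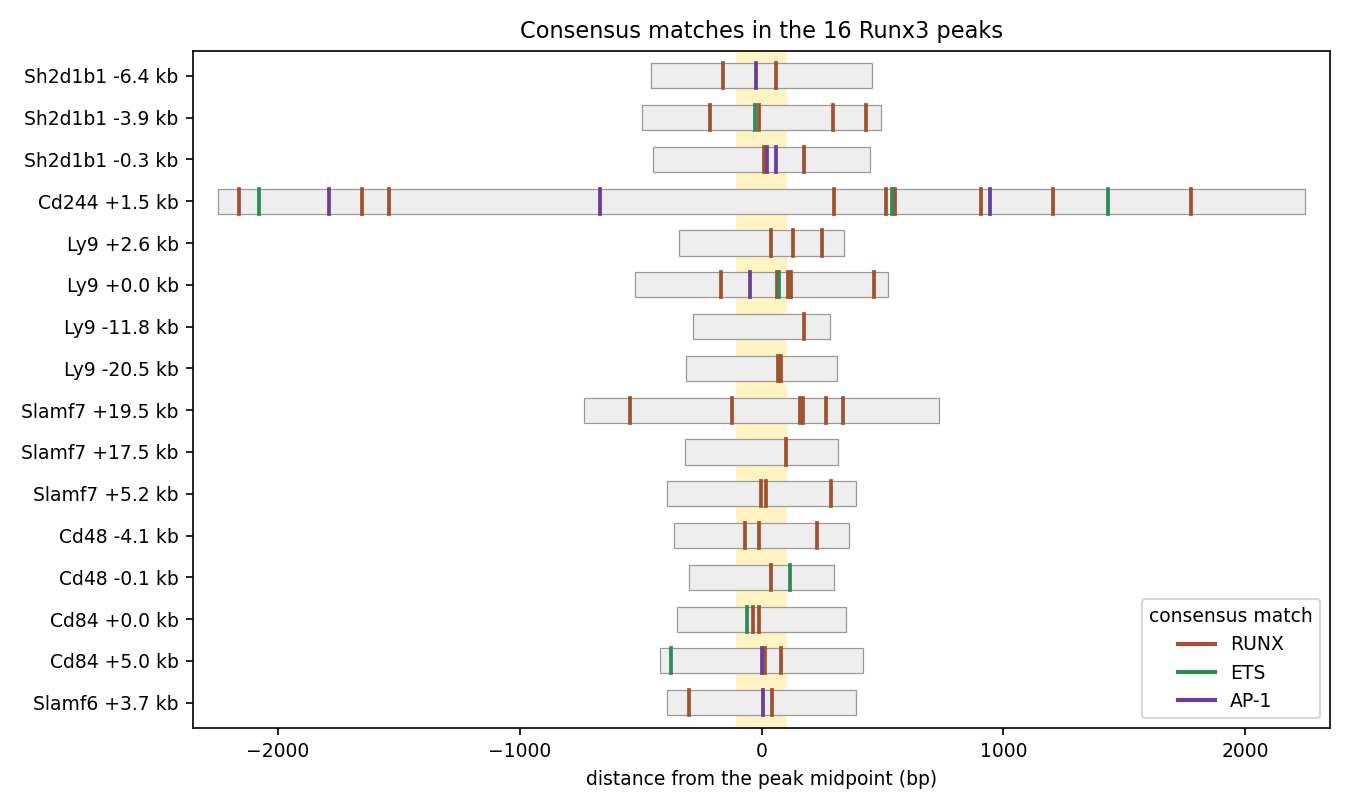
Each bar is 1 of the 16 Runx3 peaks, named by the nearest SLAM family gene and the distance of its midpoint from the start (kb, negative upstream), with RUNX (brown), ETS (green) and AP-1 (purple) matches against the distance from the peak midpoint in bp, and the central 200 bp shaded. The Cd244 peak is 4493 bp wide with its 9 RUNX matches outside the shaded part, and 12 of the 16 peaks have a RUNX match within it.

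Other genes of the pathway were looked up from a list of 15 further receptors, adaptors and signalling proteins. Of these 14 had a Runx3 peak and 15 an H3K4me1 region in the window, 6 had a peak at a start and 12 a marked first start, with a median of 5 peaks (range 0 to 15) and 27.9% of the window marked. Over all protein-coding genes the shares were 51.0% and 74.0% in the window, and 27.2% and 34.5% for the starts. The peak counts of the lists were not taken per length, and windows reached 236527 bp, at Fyn. Slamf9, a receptor gene outside the cluster, was the one without a peak, and Slamf8 had 1 peak, with 10.9% and 11.2% of their windows marked. Sh2d1a, which encodes SAP, had 1 peak, at its start on chromosome X, and 21.9% of its window marked. Sh2d1b2 had 5 peaks, 2 of which are also in the window of Sh2d1b1. Fyn, the kinase that SAP recruits, had 15 peaks over a long body and 69.2% marked, and Inpp5d, which encodes the lipid phosphatase SHIP1 of the inhibitory branch, had 8 peaks and 30.6% marked. Markers of the sorted cells were marked most. The 10 NK genes had a median of 69.3% of the window under H3K4me1 (range 29.8 to 94.8%) and 5.5 peaks, 10 of 10 with a peak. The medians were 24.4% and 1.5 peaks for 6 T cell genes (4 with a peak), 7.03% and 1 peak for 5 B cell genes (4 with a peak), and 4.96% and 1 peak for 5 myeloid genes (3 with a peak). Over all protein-coding genes the medians were 7.38% and 1 peak, and 51.0% had a peak. First starts were marked in 6 of 10 NK, 2 of 6 T cell, 0 of 5 B cell and 2 of 5 myeloid genes, against 34.5% of all protein-coding genes. The SLAM family's median of 31.9% was exceeded by 9 of 10 NK, 2 of 6 T cell, 0 of 5 B cell and 1 of 5 myeloid genes, so single genes of the lists overlapped. The shares ran from 0 to 43.4% in the T cell, 0 to 28.2% in the B cell and 0 to 47.7% in the myeloid genes. Cd8a, Ms4a1, Lyz2 and Emr1 were at the lower end, with 0 peaks and 0 H3K4me1 regions. At the upper end were the integrin gene Itgam, with 8 peaks and 47.7%, the T cell receptor complex gene Cd3g, with 2 peaks and 43.4%, the costimulatory receptor gene Cd28, with 5 peaks and 33.3%, and the B cell receptor complex gene Cd79a, with 3 peaks and 28.2%. Itgam and Cd28 each had a peak at a start. Whether the regions at these genes came from the NKC or from other cells was not tested.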

How the data were processed

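The authors aligned reads of 40 bp or slightly more to mm9 with ELAND, in CASAVA 1.7 per the submitters' processing notes. They kept unique alignments, joined the reads of their biological repeats and called regions with MACS against NIS. The deposited files are 2 lists of region coordinates, here given 1-based. A read that fitted several places equally could not count towards a region. Gene positions are those of GENCODE for the same assembly (NCBIM37), and the window of a gene ran from its first to its last base with 20 kb on either side. A region was counted where it shared at least 1 bp with the window, and a peak was at a start where its midpoint lay under 1 kb from one. Shares carry exact (Clopper-Pearson) 95% intervals for counting error. Second copies were searched with minimap2 2.31-r1302. Python 3.11.15 with pysam 0.24.0 and scipy 1.17.1 was used, and the counting was tested on simulated regions. The members, the gene lists and the settings were chosen with earlier results of these data known. Peaks were described at every member, and further genes by the pathway and marker lists. Alternatives changed the flank, the width, the overlap, the start rule and the span of the cluster.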

Additional observations from a re-analysis of the deposited data

How the results depend on the processing

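Of 26 alternatives over 8 results, 21 kept the value within the bounds set for a change and 5 moved it. The number of genes with H3K4me1 stayed at 8 under each of its 4 alternatives. With 5, 10 and 50 kb on either side, 67.7%, 70.4% and 79.7% of all genes had a region. For the alternative by region width, the share of all genes was not counted. With only peaks at least as wide as the median of all peaks, the windows held 7 peaks in place of 16. The cluster then held 0.931 peaks per 100 kb in place of 3.02. Of the genes, 5 had a peak in place of 7, and the share of all genes under this filter was not counted. That filter by its construction keeps about as many peaks as it drops. It kept 50.1% of all peaks, leaving 0.294 per 100 kb over all chromosomes and 0.253 on chromosome 1, and 4 of the 13 cluster peaks (30.8%). H3K4me1 covered 29.8% of the cluster with no flank and 24.9% with 100 kb on either side, in place of 31.2%, as the flanks themselves were marked to another extent. Restricting the RUNX search to the central 200 bp gave 75.0% of the peaks in place of 100%. With 5, 10 and 50 kb on either side of the genes, 7, 7 and 8 of them had a peak, against 39.8%, 44.3% and 62.6% of all genes, and the peaks numbered 14, 15 and 17. At 50 kb the window of Slamf1 reached the peaks of Cd84. No paired analysis was possible because each antibody had 1 list and the result comes from no test. The lists give no read depth, so the absence of a peak, as at Slamf1, says only that none was called. Sequence and copy number of the ICR genome, which may differ from mm9 at these genes, were not analysed here.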

Other observations

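Genes beside the receptor cluster were looked up within 150 kb, with 5 kb on either side of each. Of 12 such genes, 6 had a Runx3 peak, with at most 3 peaks in a gene, where 39.8% of all protein-coding genes had one with this flank. A peak lay at a start in 4 of the 12, against 27.2% of all genes, and 9 had an H3K4me1 region, against 67.7%. On the Cd244 side, past the stretch of Itln1 and Gm9765 with 0 peaks and 0 H3K4me1 regions, Usf1, a widely expressed transcription factor, had 2 peaks, and Tstd1 beside it had 1. Usf1 had a peak at its start, as had the overlapping pair B930036N10Rik and Refbp2, which share theirs. F11r, which encodes the junction protein JAM-A, had 0 peaks and 3 H3K4me1 regions. On the Slamf6 side, Vangl2, a planar polarity gene, had 0 peaks and 3 H3K4me1 regions, and Nhlh1, a neuronal transcription factor gene, had 0 of either. Ncstn, a subunit of gamma-secretase, had 0 peaks and 2 regions, and Copa, of the vesicle coat, had 1 peak and 3 regions.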
